A study of Mus musculus with 4 samples.

Results

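The barcodes described here are complement C1q-positive cells of the tumour-draining lymph node, most of which carry marker genes of lymph node sinus macrophages. The members were chosen by their own counts. A barcode was taken when it had at least 300 detected genes, at most 10% mitochondrial unique molecular identifiers (UMIs), no UMI of the B cell gene Cd79a or the T cell gene Cd3e, and at least 3 UMIs of C1qa, C1qb and C1qc together. This gave 150 of 30824 barcodes in the matrix, or 150 of the 26096 that passed the filter on genes and mitochondrial share. Single cells of inguinal lymph nodes draining B16F10 melanoma were profiled with the 10x Genomics 3' chemistry (version 3) in C57BL/6J mice bearing that tumour. The control group had 2 mice, which received none of the 3 drugs, and the treated group had 2 mice given the IDO pathway inhibitor indoximod (2 mg/ml) and the BTK inhibitor ibrutinib (350 ug daily) from day 9 and the alkylating agent cyclophosphamide (150 mg/kg) on day 10, with nodes taken 48 h later. The barcodes carry a library number from 1 to 4, but nothing in the files used here ties a number to a mouse or a group. The libraries are therefore described one by one, the treatment is not analysed here, and no p-value is given: cells of 1 library are not replicates.

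Sinus macrophages line the subcapsular and medullary sinuses of the node, where they take up particles, microbes and dying cells from the lymph. C1q is the recognition unit of the classical complement pathway and is built from A, B and C chains. MARCO is a class A scavenger receptor, CD209b (SIGN-R1) a C-type lectin that binds bacterial polysaccharide, TIM-4 (gene Timd4) a receptor for phosphatidylserine on dying cells, and CD169 (gene Siglec1) a sialic acid-binding lectin of subcapsular and medullary sinus macrophages. CCL8 is a chemokine of the CCR2 and CCR8 system. Tissue macrophages of this kind depend on CSF1 and on transcription factors such as Maf, and those that clear red cells use SpiC, haem oxygenase 1 (Hmox1) and the iron exporter ferroportin (Slc40a1).

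Because the transcription factor gene Maf was higher in the gated cells than in both comparison populations, the 250 bases before the start of 6 leading genes were read from the RefSeq promoter table (GRCm38.p6). The MAF core site searched was TGCTGA, on both strands. It matched in the windows of C1qb (1 match), Timd4 (2 matches) and Ccl8 (2 matches), and not in those of C1qc, Marco and Cd209b. Of all 32851 windows of 250 bases before a start in the table, 16.1% hold it. The PU.1 and SpiC core GAGGAAGT, present in 2.44% of those windows, matched in C1qc, and the AP-1 site TGACTCA, present in 4.46%, matched in none of the 6. A match is a run of letters and not a measured binding site. For C1qb and Timd4 the bases after the start were not found in an annotated transcript, so the place of these windows is less certain. The 3 windows with a MAF match and that of Marco are shown 5′ to 3′ on the strand of the gene, with the match in capitals (TCAGCA is TGCTGA on the other strand).
C1qb, chr4:136886201-136886450, minus strand: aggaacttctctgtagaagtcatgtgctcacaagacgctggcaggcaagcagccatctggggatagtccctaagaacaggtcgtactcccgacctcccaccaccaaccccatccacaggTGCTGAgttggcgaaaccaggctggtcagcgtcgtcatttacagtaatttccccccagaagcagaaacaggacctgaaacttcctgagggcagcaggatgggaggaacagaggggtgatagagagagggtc
Timd4, chr11:46810549-46810798, plus strand: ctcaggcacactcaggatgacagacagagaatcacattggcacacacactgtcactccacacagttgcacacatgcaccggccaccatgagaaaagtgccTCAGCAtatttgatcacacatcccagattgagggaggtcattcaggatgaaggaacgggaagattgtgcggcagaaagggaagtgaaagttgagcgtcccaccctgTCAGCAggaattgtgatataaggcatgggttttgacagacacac
Ccl8, chr11:82114935-82115184, plus strand: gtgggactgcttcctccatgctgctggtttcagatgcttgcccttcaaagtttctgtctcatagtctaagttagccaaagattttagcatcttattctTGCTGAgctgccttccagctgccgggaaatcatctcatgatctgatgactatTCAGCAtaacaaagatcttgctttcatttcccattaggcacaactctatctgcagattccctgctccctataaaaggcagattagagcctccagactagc
Marco, chr1:120505025-120505274, minus strand: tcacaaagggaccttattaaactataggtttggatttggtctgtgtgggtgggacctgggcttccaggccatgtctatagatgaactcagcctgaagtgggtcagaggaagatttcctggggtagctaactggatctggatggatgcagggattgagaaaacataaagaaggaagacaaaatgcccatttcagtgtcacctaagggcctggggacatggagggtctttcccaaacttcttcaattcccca

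The gated barcodes were few and shallow. Library 1 held 53 of them (0.94% of its kept barcodes, 95% Clopper-Pearson interval 0.70 to 1.22), library 2 held 31 (0.54%, 0.37 to 0.76), library 3 held 32 (0.51%, 0.35 to 0.71) and library 4 held 34 (0.41%, 0.28 to 0.57). The interval of library 1 did not overlap that of library 4, and its lower bound lay below the upper bounds of libraries 2 and 3. Intervals cover counting error only. The median barcode had 1334.5 UMIs (range 488 to 22086), against 5358.5 over all kept barcodes: 59 had under 1000 UMIs, 57 had 1000 or more but under 3000, and 34 had 3000 or more. Those 34 held 66.7% of all UMIs of the population, so any summed level below is weighted towards them. By library their share of UMIs was 57.1%, 69.7%, 72.7% and 71.0%, and in library 2 a single barcode gave 24.5%. The 4 libraries held 39589629, 39733183, 40339336 and 53643414 UMIs in all.

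**Figure D1:**
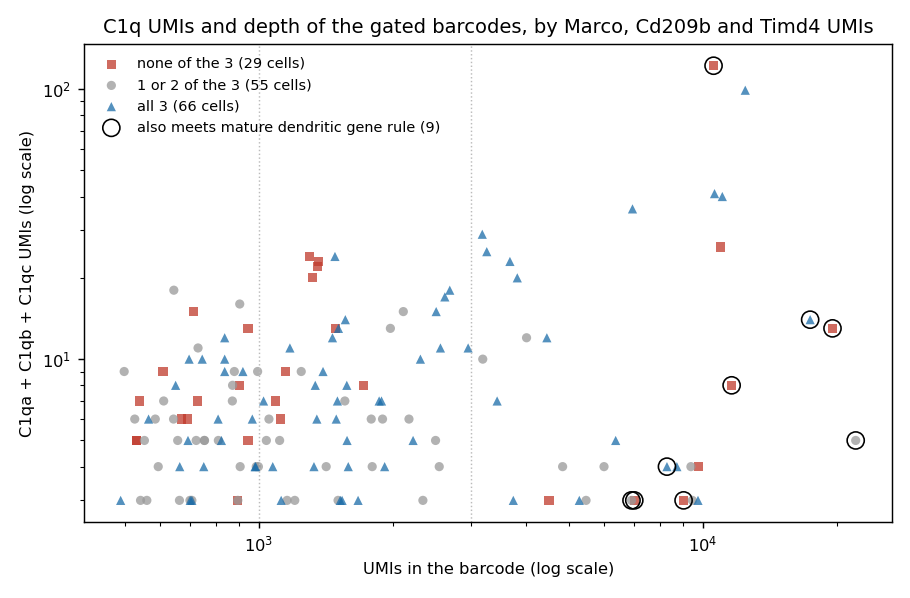
Each point is 1 of the 150 gated barcodes, with its total UMIs on the x axis and its C1q UMIs on the y axis (both log scales); colour and shape give how many of Marco, Cd209b and Timd4 had a UMI, rings mark the 9 barcodes that also meet the gene rule of mature dendritic cells, and dotted lines stand at 1000 and 3000 UMIs. The ringed barcodes all lie above 3000 UMIs and 5 of the 9 have 3 to 5 C1q UMIs; barcodes with all 3 markers occur both under 1000 and above 3000 UMIs.

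Most but not all barcodes carried the markers of the label. At least 1 of Marco, Cd209b and Timd4 was found in 121 of 150 (80.7%, Clopper-Pearson 73.4 to 86.7), all 3 in 66, and none in 29. In B cells (Cd79a-positive, median 3863 UMIs) the share with any of the 3 was 1.55%, and in T cells (Cd3e-positive, median 6410 UMIs) 0.656%, which gives the level that free RNA and mixed droplets reach in types that should lack these genes. Marco had a UMI in 91 barcodes (60.7%), Cd209b in 99 (66.0%), Timd4 in 93 (62.0%) and Ccl8 in 101 (67.3%). Siglec1 had one in 13 (8.67%), all of which also carried Cd209b. After each barcode was thinned to 500 UMIs, which left out 2 shallower ones, the shares were 36.5% for Marco, 48.0% for Cd209b, 38.5% for Timd4, 49.3% for Ccl8 and 2.70% for Siglec1. The same thinned shares were at most 1.46% for each of these 5 genes in the 2 comparison gates (of monocytes with type 2 dendritic cells, and of mature dendritic cells) and at most 0.305% in B and T cells. Of the pan-macrophage genes, Cd68 was found in 37.3%, Csf1r (the CSF1 receptor) in 35.3% and Adgre1 (F4/80) in 12.0%; Vcam1 (an adhesion molecule) was found in 27.3%, Cd5l (a scavenger protein that supports macrophage survival) in 20.7%, Mrc1 (the mannose receptor) in 17.3% and Cd163 (the haemoglobin scavenger receptor) in 1.33%. Few Adgre1, Cd163 and Siglec1 UMIs at this depth do not show that the genes are off.

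**Figure D2:**
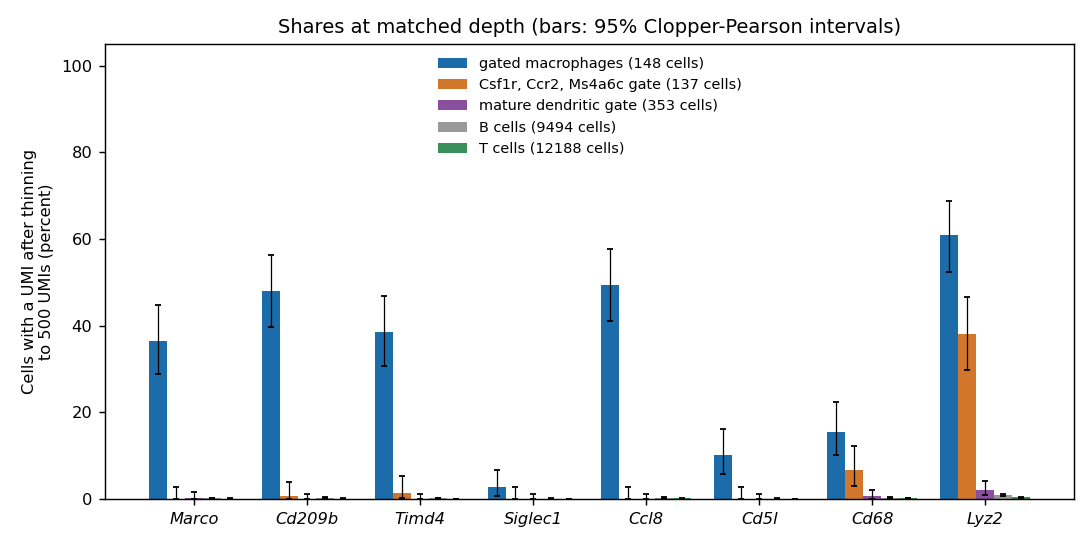
Bars give the percent of barcodes with at least 1 UMI of a gene after thinning to 500 UMIs in the gated macrophages, the 2 comparison gates, B cells and T cells, with 95% Clopper-Pearson intervals. Marco, Cd209b, Timd4 and Ccl8 stand between 36.5% and 49.3% in the gated macrophages and near 0 elsewhere, whereas Lyz2 is found in 60.8% of them and in 38% of the Csf1r, Ccr2 and Ms4a6c gate.

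The 3 chains of C1q chose the barcodes, so their levels are a description. Their summed UMIs were 576 for C1qa, 474 for C1qb and 432 for C1qc, or 38.9%, 32.0% and 29.1%. Chain shares were 35.9%, 36.5% and 27.6% among the C1q UMIs of B cells and 37.1%, 28.4% and 34.5% among those of T cells, where C1q was found in 1.36% and 0.656% of cells. The gated barcodes held 57.1% of all C1q UMIs in kept barcodes. At the edge of the rule, 32 barcodes with 2 C1q UMIs fell outside and 62.5% of them had Marco, Cd209b or Timd4, while the 48 with 3 or 4 fell inside and 89.6% had one, against 76.7% at 5 to 9 UMIs and 76.2% at 10 or more; the 2277 barcodes without C1q, Cd79a and Cd3e had one in 3.12%.

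Spread between libraries is given as the ratio of the highest to the lowest library after 10 CPM were added to each. In CPM (UMIs of a gene per 1000000 UMIs of the gated barcodes of a library), Cd209b stood at 1672, 1845, 1814 and 1338 in libraries 1 to 4. Its ratio was 1.38. Marco stood at 1099, 711, 1173 and 1370, lowest in library 2, and was also lowest there after thinning to 500 UMIs (1434, 1133, 1871 and 3059). Timd4 stood at 1191, 711, 742 and 764, highest in library 1. Ccl8 stood at 1947, 1711, 2977 and 2060, highest in library 3, as C1qa was (1321, 1222, 1955 and 1040). A single barcode gave 37.4% of the C1qa UMIs of library 3, and a single barcode gave 31.0% of its Ccl8 UMIs. After thinning to 500 UMIs, C1qa stood at 2377, 2200, 2258 and 2353 CPM, while Ccl8 was still highest in library 3 (2642, 3000, 4516 and 4000). The ratios were 1.91, 1.67, 1.74 and 1.87 for Marco, Timd4, Ccl8 and C1qa, and 2.68, 1.44, 1.71 and 1.08 after thinning to 500 UMIs. Siglec1 rested on 17 UMIs in all (69, 44, 20 and 21 CPM; ratio 2.62), and its libraries could not be told apart at this depth. Cd5l stood at 198, 100, 311 and 350 CPM and was found in 13.2%, 16.1%, 21.9% and 35.3% of barcodes.

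**Figure D3:**
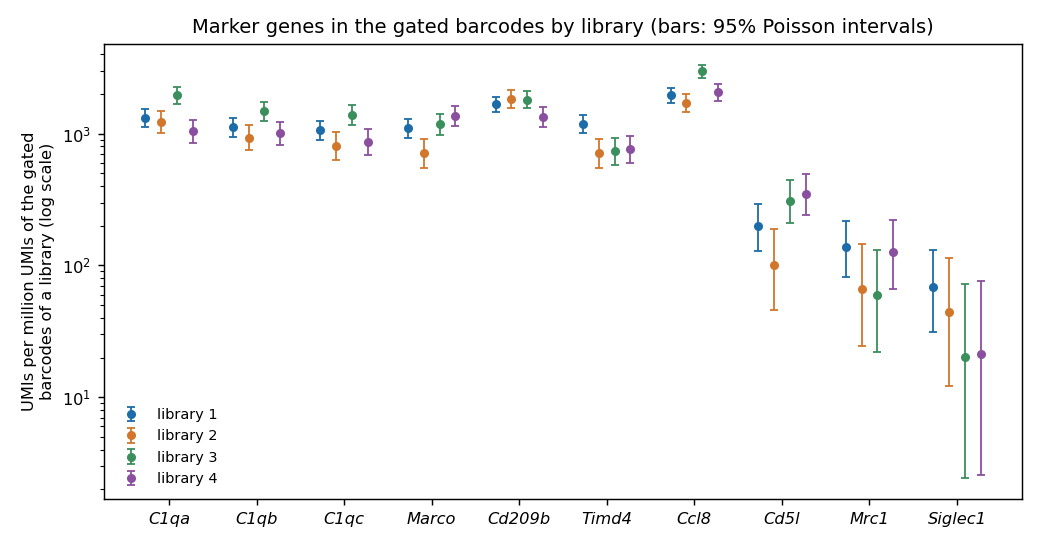
Points give the summed CPM of 10 marker genes in the gated barcodes of each library (log scale) with exact 95% Poisson intervals from the counts. Cd209b spans 1338 to 1845 and Timd4 711 to 1191 over the 4 libraries, and the intervals of Siglec1 overlap in all of them.

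Among the genes that differed most between libraries were some carried by single barcodes, and the globin gene of red cells. Apol7c, a gene of mature dendritic cells, stood at 679, 7746, 20.05 and 340 CPM, and 74.9% of its UMIs in library 2 came from 1 barcode. Gzma (granzyme A, a cytotoxic granule protease of NK and T cells) was found in 1 barcode of library 3 alone. Rsad2 (viperin, an interferon-induced antiviral enzyme) stood at 573, 11.1, 50.1 and 0 CPM, and 90.7% of its UMIs in library 1 came from 1 barcode. The beta-globin gene Hbb-bs had a UMI in 34 of 53, 15 of 31, 0 of 32 and 5 of 34 gated barcodes; in B cells the shares were 58.2%, 61.1%, 5.02% and 12.7%, so libraries 1 and 2 were the high ones and library 3 the lowest there too. The part of free red cell RNA in the macrophage value was not tested.

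Barcodes with Cd209b had more Marco, Timd4 and Ccl8 than those without. For these splits a gene could be called if 3 or more libraries had 10 counts or more of it in the compared classes, and was called if its CPM ratio passed 1.5-fold one way in each of those libraries; this is a rule on repeatability, not a test. Between the 91 barcodes with Marco and the 59 without (median 1510 and 993 UMIs), 59 genes were higher (4.75%) and 18 lower (1.45%) of 1241 that could be called (6.2% in all). Cd209b had a summed log2 ratio of 3.19 (2649 against 290 CPM, 2.24 to 5.08 over libraries), Ccl8 of 2.49 (2.10 to 3.28) and Timd4 of 2.38 (0.75 to 3.74). Splitting on Cd209b (99 against 51 barcodes, median 1394 and 1204 UMIs) called 64 higher (5.16%) and 29 lower genes (2.34%; 7.49% in all), with Timd4 at 3.68, Marco at 3.06, Ccl8 at 2.81 and the related lectin gene Cd209d at 4.05. Splitting on Timd4 (93 against 57, median 1493 and 1113 UMIs) called 48 higher (3.87%) and 19 lower (1.53%; 5.4% in all; 69 and 11 with TMM scaling), with Cd209b at 2.30, while Marco (1.79) and Ccl8 (1.18) did not reach 1.5-fold in every library. In barcodes thinned to 500 UMIs before the split, Cd209b and Timd4 kept their calls for the Marco split (log2 ratios 1.95 and 1.42) and Marco, Timd4 and Ccl8 for the Cd209b split (2.13, 1.68 and 1.83). Ccl8 lost its call for the Marco split, Cd209d for the Cd209b split (2.85) and Cd209b for the Timd4 split (1.08). Among barcodes under 3000 UMIs Timd4 lost its call for the splits on Marco (1.33) and Cd209b (2.07), and Ccl8 for that on Marco (1.13).

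Beside the sinus genes, the marker-positive barcodes had more Hmox1 and Cbr2, and those with Marco or Cd209b had less Lyz2 and Fabp5. Of 9 iron and haem genes that could be called, 3 were higher for Marco, 3 for Cd209b and 2 for Timd4. Hmox1 had log2 ratios of 2.44, 2.34 and 2.09 for Marco, Cd209b and Timd4, and Cbr2 (a carbonyl reductase) of 3.74, 3.52 and 2.36. Slc40a1 was called for Marco (2.51, 32 against 4 UMIs) and Cd209b (2.57), Blvrb (biliverdin reductase B) for Marco (1.69), and Cd5l for Marco with 98 of its 99 UMIs in Marco-positive barcodes. Lyz2 (lysozyme) was lower in the splits on Marco and Cd209b (log2 ratios -1.61 and -0.94), as was Fabp5 (a fatty acid-binding protein; -2.62 and -2.49). In barcodes under 3000 UMIs, Hmox1 and Cbr2 kept their calls in all 3 splits, and Lyz2 and Fabp5 in the splits on Marco and Cd209b; the call on Slc40a1 was lost in both. At 500 UMIs per barcode Hmox1 kept its call for Cd209b (1.91) and Timd4 (1.46) and lost it for Marco (1.71), while Cbr2, Slc40a1, Blvrb, Cd5l, Lyz2 and Fabp5 lost all of theirs. Tgfbr2 (a TGF-beta receptor chain) was called higher in all 3 splits as deposited and in none of them under 3000 UMIs.

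Siglech, best known from plasmacytoid dendritic cells, was found in 39 gated barcodes (26%), of which 38 also had Marco, Cd209b or Timd4 and 27 had all 3. It was found in 0.379% of B cells and 0.263% of T cells. By library its level was 176, 122, 160 and 159 CPM, close in all 4. It was called higher with Cd209b (3.50) and with Timd4 (2.19). Of the other 4 plasmacytoid markers on the list, Klk1 was at 0 in the gated barcodes, and the 5 genes together came to 178 CPM, of which Siglech was 157.

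The 13 barcodes with Siglec1 (6, 3, 2 and 2 by library; median 1672 UMIs against 1301) had Cd209b in 13, Timd4 in 11, Ccl8 in 11 and Marco in 9. Cd209b (log2 ratio 1.31) and Timd4 (1.94) were called higher in them. Over all genes 37 were called higher (2.98%) and 103 lower (8.29%) of 1242 (11.3% in all; 1 and 380 with TMM scaling). The lower genes included Fscn1, Ccr7, Ccl22 and Relb, each with 0 UMIs in the 13 barcodes. These are genes of the deep barcodes described next: among barcodes under 3000 UMIs Fscn1, Ccr7 and Relb had 7, 2 and 6 UMIs without Siglec1 and 0 with it, too few to give a direction, the calls on Cd209b and Timd4 were lost (0.78 and 0.89), and 19 genes were called in all. With 2 barcodes in each of libraries 3 and 4 these values are a description of few cells.

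Depth split the population. The 34 barcodes of 3000 UMIs or more had C1q at a median of 0.794 per 1000 UMIs, against 8.68 in the 59 under 1000 UMIs. This contrast follows in part from the rule, whose floor of 3 C1q UMIs is a larger share of a shallow barcode. The median count was 6 C1q UMIs in both. Of the 34, 9 also met the rule used for mature dendritic cells (Fscn1, the actin bundler fascin, with at least 3 UMIs of Fscn1, Ccr7 and Ccl22 together). The rule used for monocytes, at least 3 UMIs of Csf1r, Ccr2 and Ms4a6c together and no Siglech UMI, was met by 11. Of the 11, 5 carried all 3 of Marco, Cd209b and Timd4 and 4 carried none of them. Deep barcodes that reached that sum but held Siglech, some with all 3 of Marco, Cd209b and Timd4, are not among the 11. The doublet caller Scrublet called 0 of the 150 barcodes. Between the deep and the shallow barcodes 101 genes were called higher (10.7%) and 33 lower (3.5%) of 943 (14.2% in all; 270 and 3 with TMM scaling, which moved the median log2 ratio of all genes from -0.04 to 0.89). Fscn1 stood at 1279 against 45.6 CPM (log2 ratio 4.81), Ccl5 (a chemokine) at 4276 against 205 (4.38), Ccr7 (the receptor that guides dendritic cells to the node) at 332 against 45.6 (2.87), and the nuclear RNA Malat1 at 41601 against 1618 (4.68). Fscn1 was found in 12 of the 34 deep barcodes. In the 9 that met the dendritic rule, which asks for Fscn1, it stood at 3110 CPM. Among all barcodes under 3000 UMIs, Malat1 had 14 UMIs in those with Siglec1 and 122 in those without it. Marco (log2 ratio -2.05), Cd209b (-1.98) and Apoe (apolipoprotein E; -2.30) were called lower. The summed level of 10 conventional dendritic cell markers was 1929 CPM in the deep and 410 in the shallow barcodes, and by library 748, 3234, 641 and 1263. Of the 291 UMIs behind the library 2 value, 160 and 79 were Fscn1 UMIs of a single barcode each. The summed level of 7 monocyte markers was 1463 CPM in the deep and 1003 in the shallow barcodes. Still, 26 of the 34 deep barcodes carried Marco, Cd209b or Timd4, and 17 carried all 3, with Ccl8 in each of the 17. Of the 9 that met the dendritic rule, 4 carried one of the 3 genes. Whether a deep barcode is 1 cell, a macrophage with another cell, or a cell of another type that holds C1q RNA was not tested. Nor was it tested whether a shallow barcode, with few Malat1 UMIs, is an intact cell.

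A further group stood apart at low depth. Of the 29 barcodes with none of Marco, Cd209b and Timd4, 8 had 3000 UMIs or more. Among the 8, 5 met the dendritic rule and 4 the monocyte rule, with 1 barcode meeting both. The other 21 had fewer than 3000 UMIs. These 21 (7, 4, 5 and 5 by library; median 945 UMIs) were set against the 95 barcodes under 3000 UMIs with at least 1 of the 3 (median 1024 UMIs), a comparison chosen after the values were seen. C1q, which chose the barcodes, is given as a description: they had 4033 against 1983 CPM of C1qa, 3595 against 1907 of C1qb and 3110 against 1754 of C1qc. By the same rule 7 genes were higher (1.92%) and 26 lower (7.14%) of 364 (9.07% in all; 1 and 103 with TMM scaling, which moved the median of all genes from -0.06 to -1.003). Lyz2 stood at 25168 against 5856 CPM (log2 ratio 2.10, 1.53 to 3.82 over libraries) and Apoe at 21524 against 5703 (1.92, 0.97 to 3.74). Lyz2 was found in 18 of 21 against 67 of 95 barcodes, and Apoe in 20 against 86. Of the 518 Lyz2 UMIs in the 21 barcodes, 143 came from a single barcode of library 1 and 108 from a single barcode of library 3. Fabp5 was found in 16 of 21 against 15 of 95 barcodes, Cd68 in 11 against 27, and the lysosomal protease gene Ctsd, which was not called, in 12 against 28. Lower were Hmox1 (2 against 39 barcodes), Blvrb (4 against 56), Lgals1 (galectin 1; 1 against 55), Ninj1 (a membrane protein; 2 against 55), Dab2 (an endocytic adaptor; 0 against 28), Cbr2 (0 against 34) and Siglech (1 against 27). Ccl8 was found in 5 of 21 and 74 of 95 barcodes but did not reach 1.5-fold in every library (log2 ratio -1.04). At 500 UMIs per barcode Lyz2 kept its call (1.60) and Apoe and Fabp5 lost theirs (1.25 and 2.13). Of 3 lipid handling genes that could be called 2 were higher (median 1.92), of 15 lysosomal genes 2 (Lyz2 and Laptm5; median 0.81), and of 5 iron and haem genes 2 were lower (median -0.44), against a median of -0.06 over all 364.

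**Figure D4:**
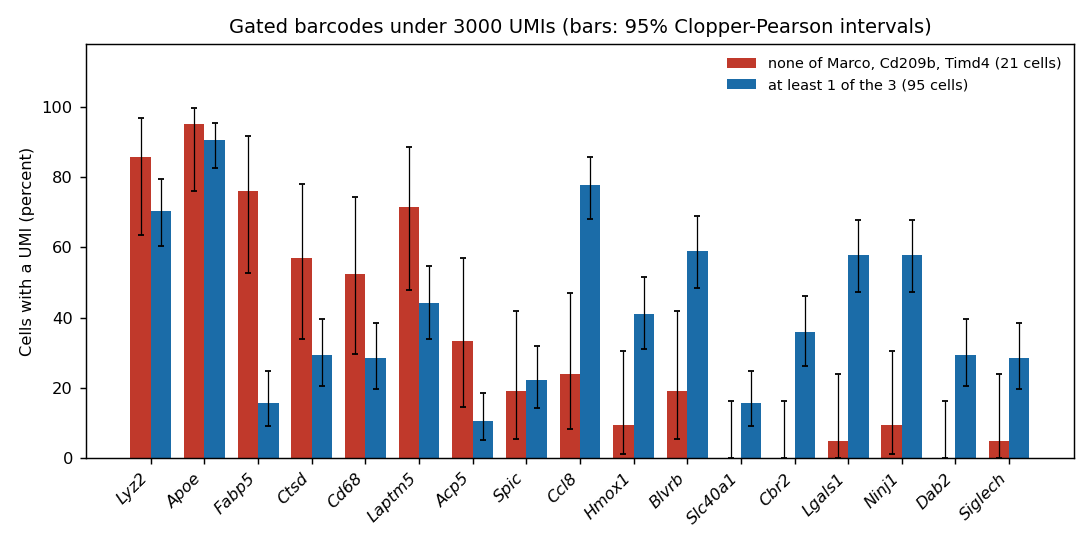
Bars give the percent of gated barcodes under 3000 UMIs with at least 1 UMI of a gene, for the 21 without and the 95 with Marco, Cd209b or Timd4, with 95% Clopper-Pearson intervals. Fabp5 is found in 76.2% and 15.8%, Ccl8 in 23.8% and 77.9%, and Lgals1 in 4.76% and 57.9%.

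The gated macrophages were next set against the populations most like them. One was gated on at least 3 UMIs of Csf1r, Ccr2 and Ms4a6c without C1q, Siglech, Cd79a and Cd3e (137 barcodes, median 7334 UMIs; 29, 37, 34 and 37 by library), which takes monocytes and type 2 dendritic cells but also NK-like cells, as Ncr1, an NK receptor gene, was found in 25.5% of it. The other was gated on Fscn1, Ccr7 and Ccl22 without C1q (353 barcodes, median 8476 UMIs; 55, 56, 102 and 140). Genes of each gate were left out of calls. The gated class was kept whole. Of its 150 barcodes, 9 met the dendritic rule and held 112532 of its 414929 UMIs. The monocyte rule was met by 15, with 83884 UMIs, and 1 barcode met both rules. Against the first, 219 genes were called higher (4.55%) and 301 lower (6.26%) of 4809 (10.8% in all). Against the second, 492 were higher (7.43%) and 464 lower (7.01%) of 6618 (14.4% in all; 361 and 832 with TMM scaling). Both comparisons share the 150 barcodes, so their values are given side by side and not counted as independent.

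Sinus markers led both comparisons. Of the 12 genes on that list, 7 were higher of 9 that could be called against the first gate (4.55% of all genes were called higher) and 8 of 8 against the second (7.43%). The list holds the markers of the label and was chosen with earlier results of these data known, so these counts are a description. Cd209b stood at 1668 CPM against 3.35 and 1.81, Ccl8 at 2169 against 5.03 and 1.81, Timd4 at 882 against 6.70 and 1.205, and Marco at 1094 against 5.03 and 6.33. Within the first gate Marco had 6 UMIs in all and within the second 21. Members of the list that were not called against the first gate were Cd68 and Adgre1, which monocytes share. Folr2 (a folate receptor of tissue macrophages) stood at 178 CPM against 1 UMI in each of the other gates. Igf1 (insulin-like growth factor 1) had 152 UMIs against 1 in the first gate. Selenop (selenoprotein P) stood at 1902 against 8.74 CPM in the second. Cox4i2, a cytochrome oxidase subunit isoform, had 58 UMIs in the gated barcodes and 0 in both gates.

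The genes of iron and haem turnover were higher together. Of 13 that could be called, 11 were higher against the first gate (median log2 ratio 2.58, against -0.13 over all genes) and 12 against the second (2.42, against 0.04). Hmox1, which breaks haem down to biliverdin, iron and carbon monoxide, stood at 611, 367, 862 and 637 CPM in libraries 1 to 4 of the gated barcodes, at 20.2, 16.2, 18.5 and 28.7 in the first gate and at 1.90, 3.08, 3.18 and 2.496 in the second. In each library the summed Hmox1 value of the gated barcodes was above those of both gates, with 1 value per class and library. Slc40a1, the iron exporter, had 36 UMIs in the gated barcodes and 0 in both gates, a log2 ratio of at least 5.11 and 6.59 with 3 counts allowed over the gate. Blvrb and Blvra, which reduce biliverdin, had log2 ratios of 3.76 and 1.85 against the first gate and 3.32 and 2.78 against the second. Spic, the transcription factor of red pulp macrophages, stood at 188 CPM against 20.1 and 17.5. The ferritin genes Fth1 and Ftl1, which store iron, stood at 12843 and 10657 CPM, against 2995 and 2599 in the first gate and 2167 and 4165 in the second. Nfe2l2 (NRF2, which drives Hmox1 in oxidative stress) was the exception: it was lower against the first gate (86.8 against 159 CPM) and higher against the second (34.0). Among barcodes under 3000 UMIs, 9 of 12 and 10 of 12 were called higher, and with TMM scaling 10 and 11 of 13.

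**Figure D5:**
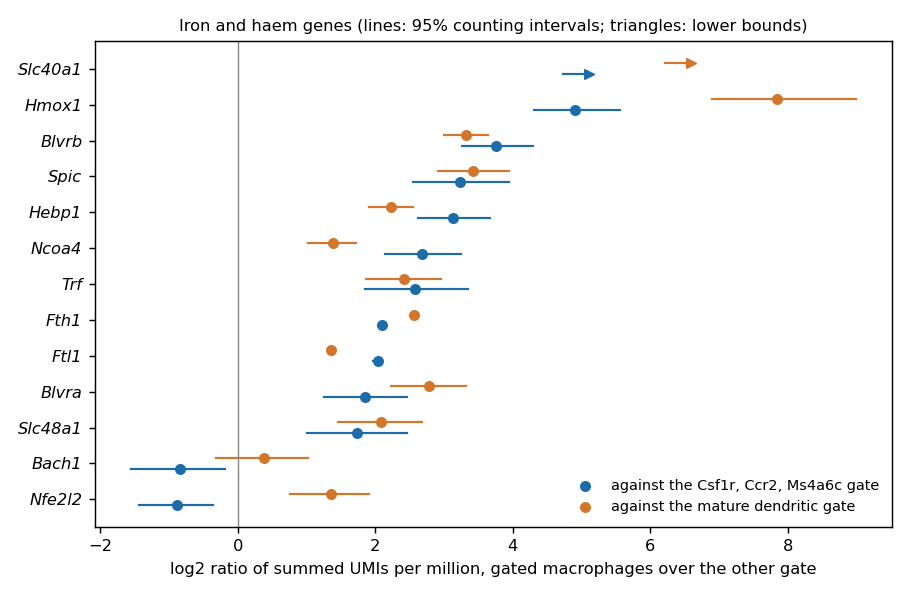
Points give the log2 ratio of summed CPM for 13 iron and haem genes in the gated macrophages over each comparison gate; lines are 95% counting intervals and triangles are lower bounds for Slc40a1, which had 0 UMIs in both gates. All but Bach1 and Nfe2l2 lie above 0 in both comparisons, from 1.36 for Ftl1 against the mature dendritic gate to 7.85 for Hmox1 against that gate.

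Transcription factors were called in both directions, and lipid genes in 1. Of 16 transcription factors 4 were higher against the first gate, among them Maf, Nr1h3 and Spic, and 3 lower, and of 18 against the second 8 were higher and 3 lower, beside 4.55% higher and 6.26% lower over all genes against the first gate and 7.43% and 7.01% against the second. Maf stood at 672, 545, 311 and 170 CPM by library, with 71.2 in the first gate and 1.81 in the second. Nr1h3 (the oxysterol receptor LXR-alpha) stood at 258 against 36.9 and 8.43. Of the lipid handling genes, 6 of 11 were higher against the first gate (median 1.19) and 5 of 10 against the second (1.65), Apoe at 3926 CPM against 245 and 51.5. At a fold of 2, 3 of the 11 were called. Of the lysosomal genes, 5 of 29 were higher against the first gate (Acp2, Cd63, Lamp1, Ctsb and Ctsl; median 0.51) and 14 of 30 against the second (1.59). In barcodes under 3000 UMIs the first count was 14 of 29. Cd63 (a tetraspanin of late endosomes) stood at 894 against 44.4 CPM in the first gate. Lyz2 was 5117 against 5267 CPM in the first gate and 67.2 in the second.

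Fc receptor and interferon genes were called against the mature dendritic gate, where 7.43% of all genes were called higher, and none of them against the first gate, where 4.55% were. Of 7 Fc receptor and adaptor genes 6 were higher against the dendritic gate (median 2.00) and 0 of 6 against the other (-0.17). Of the type I interferon genes 12 of 23 were higher against the dendritic gate (median 1.85), with Irf7, a factor that drives interferon genes, at 260, 100, 401 and 457 CPM against 0, 4.63, 15.9 and 26.6 by library. Against the other gate 0 of 25 were called (median -0.25). Of the innate sensors, 0 of 3 were called against the dendritic gate and 1 of 5, Tlr13 (a receptor for bacterial ribosomal RNA), was lower against the first. No gene of MHC class II was called against the first gate (0 of 9), and 1, H2-DMb1, against the second. Of the chemokines, Ccl8, Ccl12, Ccl22 and Cxcl16 were higher of 10 against the first gate and Ccl9 was lower (median -0.34). Against the dendritic gate 5 of 9 were higher, and Cxcl16 and Ccl5 were lower. Ccl22 had 142 UMIs, of which all were in deep barcodes. Of the targets of the drugs, Btk (the kinase that ibrutinib inhibits) was found in 11.3% of gated barcodes, 24.1% of the first gate, 9.35% of the second and 38.1% of B cells. These shares are not matched for depth (medians of 1334.5, 7334, 8476 and 3863 UMIs). By CPM, of 3 BTK and IDO genes that could be called, Btk was higher and Ahr lower against the second gate. Against the first, 0 of 3 were called. Ido1 (indoleamine dioxygenase) had 0 UMIs, which allows at most 7.23 CPM.

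UMIs of lymphocyte genes were present beside these results. Cd79a and Cd3e were 0 by the rule, yet 122 barcodes had a UMI of another B cell marker and 74 of another T cell marker; the B list summed to 1466, 967, 1052 and 966 CPM by library. Igkc and Ighm were called higher against both gates, Igkc at 316 CPM against 40.2 in the first. Cd4, which mouse macrophages can also carry, was called higher against both (128 CPM against 20.1 and 5.12). Of 6 NK genes 5 were lower against the first gate, among them Ncr1 (21.7 against 177 CPM), and all 9 Ncr1 UMIs of the gated barcodes came from 1 barcode of library 3. With the first gate taken without Nkg7-positive barcodes, that gate had no UMI of Ncr1, Klrb1c and Prf1, against 9, 7 and 2 in the gated barcodes, and 451 genes were called in all. The neutrophil genes S100a8 and S100a9 and the plasma cell gene Jchain had no UMI in the gated barcodes. The part of free RNA in the immunoglobulin values was not tested.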

How the data were processed

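Cells of lymph nodes from 4 mice were counted as UMIs. The deposited matrix holds raw counts of UMIs per gene and barcode, made with cellranger 5.0.0 per the file headers on build mm10 per the submitters' processing notes; it pools 4 libraries that no file used here ties to a mouse. Against about 2000 cells intended for each sample, per the labels, the matrix has 30824 barcodes. Of the 31053 genes, 35 symbols name more than 1 row. The deposited barcode and feature files hold names, with no measured value.

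The members, the 28 gene lists and the comparisons were chosen with earlier results of these data known. For each class, the counts of its barcodes were added up by library and scaled to the class total (CPM). A call needed a CPM ratio past 1.5-fold one way in each library that had 10 counts or more in the compared classes, and 3 or more such libraries. The rule was tried on simulated data. With a class at 0, ratios use 3 counts over the class. Intervals are exact Poisson and Clopper-Pearson (95%) and cover counting error only; UMIs of 1 cell share its capture. Named genes are C1qa, C1qb, C1qc, Marco, Cd209b, Timd4, Siglec1 and Ccl8, up to 3 called genes per list to 28 per comparison, the 5 largest outside the lists in each direction, and the 10 with the largest spread between libraries; genes named in counts of a list or in the split by depth, and Ctsd, Cd68 and others printed beside a list's count, were named after their values were seen. Alternatives were fold 2, 20 counts, TMM (edgeR 4.0.16), gates of 5 C1q UMIs, 500 genes or 5% mitochondrial UMIs, removal of doublets called by Scrublet (scanpy 1.11.5; called doublets were otherwise kept; the 105, 120, 228 and 474 calls in libraries 1 to 4 included no member) and each library left out. Thinning of members in the class comparisons, members under 3000 UMIs, the gate without Nkg7 and the comparison of barcodes without Marco, Cd209b and Timd4 were added after seeing the data. The 86 barcode sequences found in 2 libraries included none of the 150. Some items are not reported here.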

Additional observations from a re-analysis of the deposited data

Results flagged for a closer look

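Some groups of barcodes that the rule left out carried the same marker genes. Of 43 barcodes with at least 3 C1q UMIs and neither Cd79a nor Cd3e that failed only on a mitochondrial share above 10%, 41 (95.3%, Clopper-Pearson 84.2 to 99.4; median 1463 UMIs) had Marco, Cd209b or Timd4, a signal in data that no comparison above uses. Of 49 barcodes with C1q and Cd79a, 41 had one (83.7%, 70.3 to 92.7; median 4874 UMIs), and of 17 with C1q and Cd3e, 13 had one (76.5%, 50.1 to 93.2; median 8963 UMIs). Of 7 that failed on the number of genes only, 2 had one (28.6%). B and T cells without C1q had one in 0.822% and 0.388%. The doublet caller marked 2 of the 49 and 3 of the 17. Whether these barcodes are macrophages joined to lymphocytes or macrophages that hold lymphocyte RNA was not tested.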

How the results depend on the processing

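Counts of called genes moved by over 1.5 times under most alternatives; removing called doublets took out none of the 150 barcodes. No paired analysis was possible because the libraries carry no replicate number and no group. Depth limits these values: the median gated barcode had 1334.5 UMIs, and 34 barcodes held 66.7% of them. Leaving out a library in turn gave 823 to 942 genes against the monocyte gate (520 with all 4), 1371 to 1998 against mature dendritic cells (956), 159 to 335 for Marco (77), 169 to 385 for Cd209b (93), 159 to 269 for Timd4 (67), 309 to 378 for Siglec1 (140), 248 to 295 for deep against shallow (134) and 51 to 86 for barcodes without markers (33); these counts rise by construction, since fewer libraries must then pass. The number of gated barcodes (150) was 97 to 119 without 1 library and 93 at 5% mitochondrial UMIs.

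At a fold of 2 the counts in the same order were 277, 521, 30, 42, 27, 90, 80 and 17. With 20 counts they were 290 (monocyte gate), 27 (Marco), 41 (Cd209b), 21 (Timd4), 50 (Siglec1), 55 (depth) and 14 (without markers). TMM scaling gave 381 for Siglec1, 273 for depth and 104 without markers. A gate of 5 C1q UMIs gave 46 for Marco, 58 for Cd209b, 59 for Siglec1 and 44 for depth, and 5% mitochondrial UMIs gave 75, 77 and 17 for Siglec1, depth and no marker. Thinned members gave 1717 against mature dendritic cells, 10 for Marco, 14 for Cd209b, 7 for Timd4 and 9 without markers, and members under 3000 UMIs gave 859, 1751, 18, 22, 10 and 19 for the first 6 comparisons. Thinned shares with a UMI were 36.5% (Marco), 48.0% (Cd209b), 38.5% (Timd4) and 2.70% (Siglec1). The Siglec1 split gave no value when thinned.

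Of 2872 recomputed values of named genes, 2247 kept direction and call, 578 lost the call, 22 gained it and 25 changed direction. The cause was not tested. Leaving out a library cannot lose or reverse a call, since fewer libraries must then pass. Each such setting kept 226 to 228 values of 229 by construction. Removing called doublets, none of them a member, kept all 229. These kept values therefore say little about how stable the calls are. A further 23 values, 11 of them under 3000 UMIs and 7 at 5% mitochondrial UMIs, had a class at 0 and too few UMIs in the other to give a direction. The monocyte gate without Nkg7 had 0 UMIs of Klrb1c, Ncr1 and Prf1, and with 3 counts allowed over it the log2 ratios were 2.25, 2.61 and 0.44; that of Prf1 rests on 2 UMIs. For Marco, Tspan3 was 0.54 thinned, and Tspan3 and Ms4a4c were 0.44 and 0.18 under 3000 UMIs. For Cd209b, thinning gave Igkc -0.043, Chchd10 -0.20, Tgfbr2 -1.11 and Spag9 0.12, and Igkc was -0.21 under 3000 UMIs. For Timd4, thinning gave Vcam1 -0.16, Epb41l2 0.67, Acp5 0.090 and Mtdh 0.26, and under 3000 UMIs Mtdh was 0.71 and Ms4a4c 1.71. For Siglec1, barcodes under 3000 UMIs gave Tnfrsf1b 1.28, Klf2 0.38, Myo9a -0.67, Ccl5 2.38 and Malat1 0.96, of which the first 3 rest on 1 UMI with Siglec1. Without markers, Laptm5 was -0.0653 with TMM and Chchd10 0.30 thinned.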

Other observations

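Other genes with a large spread between libraries in the gated barcodes were also held by few of them. Ccl17, a chemokine of dendritic cells, stood at 15.3, 900.2, 0 and 0 CPM in libraries 1 to 4, and 3 barcodes of library 2 carried it. Serpinb1a, a serine protease inhibitor, stood at 15.3, 500.1, 0 and 0 CPM, with 95.6% of its UMIs in library 2 from 1 barcode. Nkg7, a granule gene of NK and T cells, stood at 7.63, 0, 481 and 10.6 CPM, with 95.8% of its UMIs in library 3 from 1 barcode. Plac8, a gene of monocytes, stood at 389, 11.1, 381 and 881 CPM and was found in 4, 1, 6 and 5 barcodes. Each of the 11 kept barcodes with at least 3 C1q UMIs and both Cd79a and Cd3e carried Marco, Cd209b or Timd4; their median was 12442 UMIs, and Scrublet called 1 of them.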
